A study of Mus musculus with 3 samples.

Results

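The change in the siRNA ratio between light polysomes and the top fraction was followed gene by gene in stromal cells grown from lymph nodes of BALB/c mice, after knockdown of Eif4g3. For each gene, the log2 of Eif4g3 siRNA signal over control siRNA signal in light polysomes was taken less the same log2 ratio in the top fraction, and this log2 difference is called light minus top. A positive value means that the siRNA ratio was higher in light polysomes than in the top fraction, and a negative value that it was lower. Genes entered when at least 1 of their probes was well above background in both channels on both arrays, which left 10683 genes (14043 probes) of 27745 gene names (41174 probes). Eif4g3 siRNA or control siRNA was transfected at 400 pmol, with fresh medium after 24 h and harvest after 48 h. For each siRNA, 7 plates were pooled and lysed, and the lysate was spread over a continuous 10% to 60% sucrose gradient. The top fraction, light polysomes and heavy polysomes each went on 1 Agilent 2-colour array. Cy5 carried the Eif4g3 siRNA sample and Cy3 the control siRNA sample throughout, with no dye swap. With 1 array per fraction there was no replicate error, so no p-value across genes was computed and fraction and array cannot be told apart. In pooled cells, fewer cells of a type and less RNA per cell cannot be told apart either.

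Ribosomes reach most mRNAs through eIF4F, a complex on the mRNA cap that holds the cap-binding protein eIF4E, the helicase eIF4A and a scaffold protein of the eIF4G family. Eif4g3 encodes the scaffold eIF4GII, Eif4g1 encodes its close relative eIF4GI, and Eif4g2 encodes a relative that lacks the eIF4E-binding part. The top of a sucrose gradient holds mRNA that is free or carries few ribosomes, light polysomes hold mRNA with a few ribosomes and heavy polysomes mRNA with many. Light minus top was taken to ask whether the passage of free mRNA into polysomes changed with the knockdown. mRNAs of ribosomal proteins and translation factors begin with a tract of pyrimidines, the TOP motif (terminal oligopyrimidine), and move between the free pool and polysomes with the activity of mTOR.

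The top array was the dimmer one. The upper quartile of the net signal was 686 in the Eif4g3 siRNA channel and 288 in the control channel for light polysomes, against 39.6 in the Eif4g3 siRNA channel and 40.5 in the control channel for the top fraction. Ratios of dim spots are drawn towards 0 by the background correction, and the slope of the ratios used here on the scanner software's own ratios was 0.862 for light polysomes and 0.59 for the top fraction. Differences with the software's ratios are given beside the main values for the genes and groups named where they end a call or move a value most, and can differ for others. Of the probes, 6615 were measured in light polysomes alone and 294 in the top fraction alone. At the limit of measurement, the 1st percentile of the net signal of probes well above background was 26.5 (Eif4g3 siRNA) and 21.3 (control) on the light array and 10.2 (Eif4g3 siRNA) and 15.4 (control) on the top array. The 99th percentile of probes not well above background was 26.1 (Eif4g3 siRNA) and 22 (control) on the light array and 13.1 (Eif4g3 siRNA) and 16.9 (control) on the top array. Fibroblastic stromal markers were measured for 13 of 19 genes on the array, leukocyte markers for 4 of 20, endothelial markers for 2 of 12 and epithelial, smooth muscle and pericyte markers for 6 of 15. The measured markers outside the fibroblastic list had light minus top values between -0.46 for Csf1r and 0.42 for Lyzs. The defining leukocyte gene Ptprc and the endothelial genes Pecam1 and Cdh5 were not among the measured genes.

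Over all 10683 genes, light minus top had a median of 0.00, the quartiles were -0.21 and 0.22, and the range was -2.10 to 1.48. At the 2-fold threshold, a log2 difference of 1 or -1, 34 genes were higher in light polysomes than in the top fraction (0.318% of all genes measured) and 79 were lower (0.739%), 1.06% in all. The SD over genes of the ratios computed here was 0.34 in light polysomes and 0.28 in the top fraction. On the software's ratios these had slopes of 0.862 and 0.59, so top ratios were drawn further towards 0. The 2 SDs therefore do not say in which fraction the ratio varied more. The spot error of light minus top, from the software's error model, had a median of 0.30 for the 7942 genes with 1 measured probe and of 0.21 for the 2741 genes with more. Separate probes of a gene differed with a median SD of 0.17, and repeated spots of a probe with one of 0.06. These errors cover spots and probes, not cultures.

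**Figure D1:**
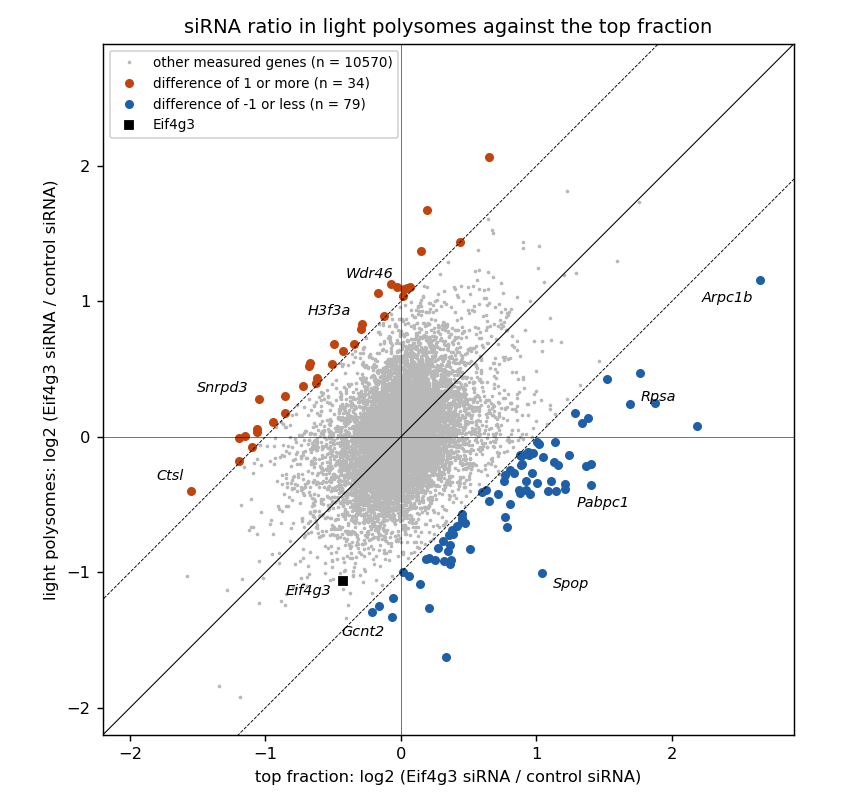
Each point is a gene, placed by log2 of Eif4g3 siRNA over control siRNA signal in light polysomes (y axis) and in the top fraction (x axis), 1 array each. The solid line marks equal ratios and the dashed lines a log2 difference of 1 and -1. Blue points, lower in light polysomes, lie mostly to the right of 0 with top ratios as high as 2.65 for Arpc1b, and red points, higher in light polysomes, lie mostly left of 0.

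Most of the genes lower at 2-fold stood out through the top fraction. Of the 79 lower genes, 9 had a light ratio of -1 or less and 26 a top ratio of 1 or more, 1 gene met both and 45 met neither. The top ratio was the larger deviation in 51 of the 79, and their median ratio was -0.39 in light polysomes and 0.87 in the top fraction. Of the 34 higher genes, 11 had a light ratio of 1 or more and 8 a top ratio of -1 or less, with medians of 0.59 in light polysomes and -0.50 in the top fraction. All 113 had the same sign with the software's ratios, and 29 of the 34 and 67 of the 79 were past 2-fold there too. By the software's ratios, 167 genes were higher (1.56%) and 214 lower (2%), so that 43.8% of the calls were higher against 30.1% here. Without the loess step, which removes the trend of the ratio with signal, 76.5% of the calls were higher and the median of all genes shifted by 0.13. A single probe carried the value of 27 of the 34 and of 71 of the 79. Calls were uneven over signal. In the brightest of 4 equal classes on the top array lay 15 of the 34 higher genes and 65 of the 79 lower genes, and in the dimmest class 7 of the higher and none of the lower. The SD of light minus top over genes was 0.43 in the brightest class and 0.29 in the dimmest. With the software's ratios it was 0.44 in the brightest and 0.50 in the dimmest, so the spread over signal depended on the ratio used.

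The knockdown target had a ratio of -1.06 ± 0.16 in light polysomes and -0.43 ± 0.16 in the top fraction (spot error, 2 probes), a light minus top of -0.63 ± 0.23. Its net signal was 1425 in the Eif4g3 siRNA channel and 1322 in the control channel on the light array, against 54.7 in the Eif4g3 siRNA channel and 93.5 in the control channel on the top array. Both probes, at chr4:137475547-137478087 and chr4:137478284-137478343 on the plus strand of mm8 in the files, had nearly the same difference, -0.65 and -0.61. Its normalized ratio was thus below 0 on both arrays, and lower in light polysomes, and it had a heavy polysome ratio of -1.77. With the software's ratios its light minus top was -0.32, so its size depends on the ratio used. Eif4g2, over 4 probes, had -0.50 in light polysomes and -0.28 in the top fraction, a difference of -0.22 ± 0.15. Eif4g1 had ratios of 0.00 in light polysomes and -0.04 in the top fraction, a difference of 0.04 ± 0.32, beside a ratio of -0.78 in heavy polysomes. Neither relative passed 2-fold.

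Nearly all ribosomal protein genes had a light minus top below 0. Of 47 measured large-subunit genes 43 were below 0, with a median of -0.49, and of 33 small-subunit genes 31 were below 0, with a median of -0.46, where 49.5% of all genes were below 0. At 2-fold, 3 of the 47 and 4 of the 33 were lower and none was higher. Their median ratios were 0.10 (large) and 0.08 (small) in light polysomes, against 0.54 (large) and 0.48 (small) in the top fraction, so the groups stood above 0 in the top fraction and near 0 in light polysomes. In heavy polysomes the medians were 0.23 and 0.36. Rpsa, a small-subunit protein known also as a laminin receptor, had 0.24 in light polysomes and 1.69 in the top fraction, a difference of -1.45 ± 0.24, with -1.49 and -1.41 for its 2 probes. Rps15 differed from it in that its light ratio lay below 0, at -0.67, against 0.78 in the top fraction, a difference of -1.45. Rps2 had -0.21 in light polysomes and 1.16 in the top fraction. Rplp1, a stalk protein of the large subunit, had 0.10 in light polysomes and 1.34 in the top fraction. Rpl41 (-1.17) in the large subunit and Rps12 (-1.11) in the small subunit were lower at 2-fold too. With the software's ratios, Rps2 (-0.99), Rplp1 (-0.73), Rpl41 (-0.69) and Rps12 (-0.65) were short of 2-fold, while Rpsa (-1.59) and Rps15 (-1.34) were past it. On the other side of 0 were Rpl7a at 0.44, Rpl21 at 0.27 and Rps27l, a relative of Rps27 known as a p53 target, at 0.42.

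Other mRNAs known to carry a TOP motif were mostly below 0 as well. The list of elongation factors and other TOP mRNAs had 17 of 18 genes below 0, a median of -0.43 and 1 gene lower at 2-fold, Pabpc1. Its median ratio was 0.06 in light polysomes and 0.54 in the top fraction. Fau, which encodes a small-subunit protein fused to a ubiquitin-like part, had 0.28 in light polysomes and 1.22 in the top fraction, a difference of -0.94 that was -0.51 with the software's ratios. Gnb2l1, now Rack1, the scaffold on the small subunit, had 0.02 in light polysomes and 0.93 in the top fraction, a difference of -0.90. Eef1g, a subunit of elongation factor 1, had a difference of -0.83, while Eef1d of the same complex had 0.03.

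These genes are among the brightest on the top array, so they were set beside other genes of like signal. Above the 98th percentile of the top array's signal, 78 ribosomal protein and TOP genes, clones described as like a ribosomal protein included, had a median of -0.62 with 75 below 0. Such clones may measure the mRNA of a named gene, so the genes in these counts are not all separate. The 136 other genes of that signal had a median of -0.13 with 76 below 0. Between the 95th and 98th percentile, the medians were -0.40 for 30 such genes and 0.00 for 291 others. Without loess the medians of the large-subunit, small-subunit and TOP lists were -0.06, -0.12 and -0.02, which is -0.19, -0.24 and -0.15 relative to the shift of all genes. With the software's ratios they were -0.32, -0.22 and -0.37. The size of these list medians therefore depended on the normalization, and their sign was the same in all 9 alternatives run. Other genes of like signal moved with the normalization too. Above the 98th percentile the median with the software's ratios was -0.41 for the 78 genes and 0.08 for the 136 others. Without loess it was -0.14 for the 78 and 0.39 for the 136, so the 78 lay below the others with each ratio.

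**Figure D2:**
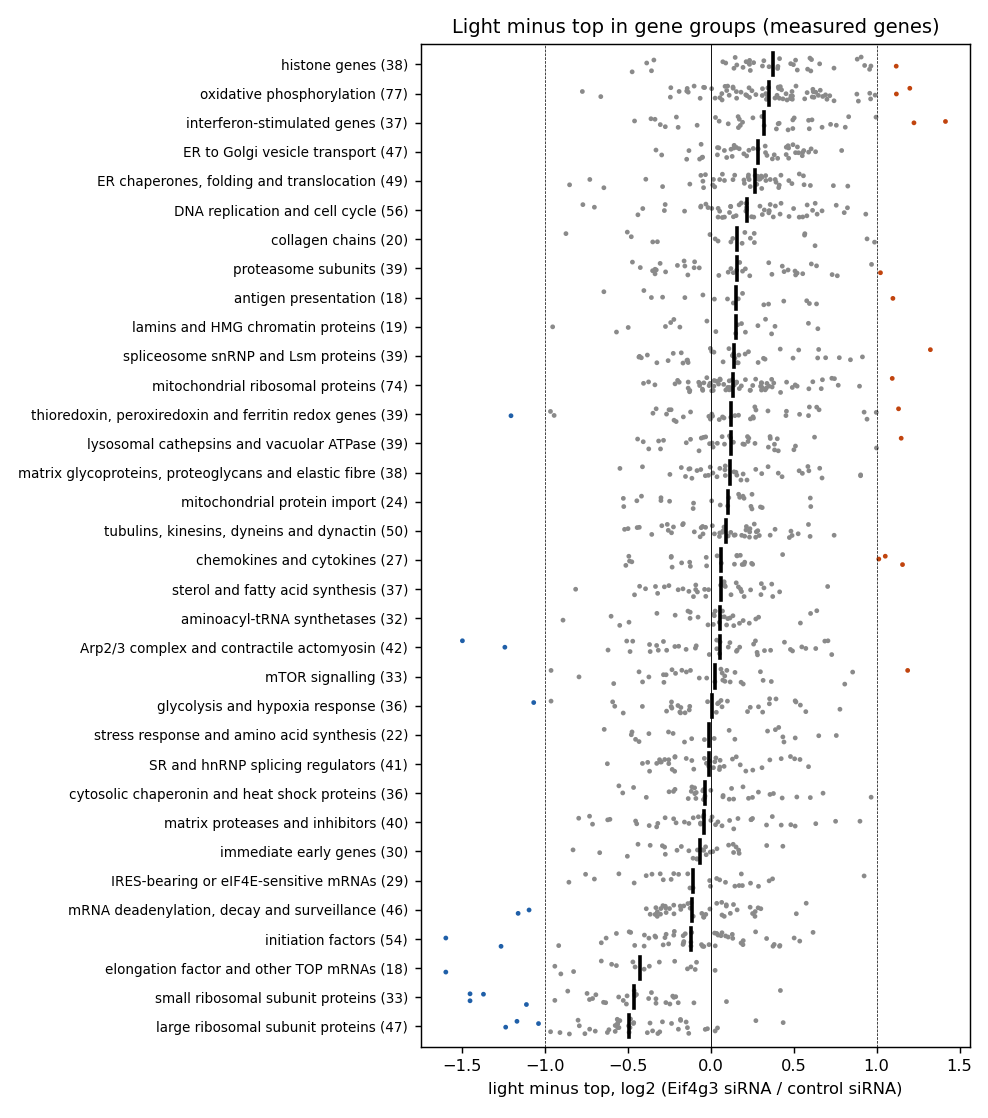
Light minus top (x axis, log2) of each measured gene in the gene groups with 15 or more measured genes (numbers in parentheses), with a black bar at the median, red points at 1 or above and blue points at -1 or below. Ribosomal protein and TOP groups lie lowest, with medians of -0.49, -0.46 and -0.43, and histone genes and oxidative phosphorylation highest, with 0.38 and 0.35.

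The start regions of a few of these genes show the tract that the TOP group is named for. Each line gives 30 bases of the gene's strand around the start annotated by RefSeq on GRCm38.p6, the first 10 lying before the start. Capitals mark a run of a C within 5 bases of the start followed by at least 4 C or T, searched on the gene's strand alone. The first 5 genes were chosen as low members of the lists that hold the tract, and the last 2 as high members of the oxidative phosphorylation list that do not.
Rps2 (chr17:24720053-24720082, plus strand): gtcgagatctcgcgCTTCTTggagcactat
Rpl12 (chr2:32961702-32961731, plus strand): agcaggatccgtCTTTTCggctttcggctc
Fau (chr19:6057937-6057966, plus strand): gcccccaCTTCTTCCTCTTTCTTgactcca
Gnb2l1 (chr11:48800350-48800379, plus strand): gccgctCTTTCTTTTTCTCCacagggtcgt
Rplp2 (chr7:141447641-141447670, plus strand): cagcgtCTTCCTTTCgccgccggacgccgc
Atp5g3 (chr2:73911307-73911336, minus strand): cggcgcggataagagccgcaccgcgcttgc
Ndufc2 (chr7:97399993-97400022, plus strand): ttagaagcccggaacctcgcgtgcagaggt
Light minus top was -1.37 for Rps2, -0.97 for Rpl12, -0.94 for Fau, -0.90 for Gnb2l1 and -0.80 for Rplp2, against 1.20 for Atp5g3 and 1.12 for Ndufc2. The run was found in 29 of the 60 ribosomal protein genes with a sequence in the promoter table (48.3%), in 1866 of 7690 measured genes (24.3%) and in 18.35% of all 32851 windows of the table. Within the ribosomal protein genes it did not separate the values, with a median of -0.53 for the 29 with the run and -0.49 for the 31 without. Over all measured genes the medians were 0.00 with the run and 0.02 without. Oxidative phosphorylation genes had medians of 0.13 for the 17 with the run and 0.48 for the 48 without. An annotated start can lie some bases from the start used in these cells, so a window without the run says only that these letters are not there.

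Genes of mRNA-binding proteins that act in translation were among the lowest. Pabpc1 encodes the cytoplasmic poly(A)-binding protein, which binds the mRNA tail and eIF4G. Its ratio was -0.38 in light polysomes and 1.22 in the top fraction, a difference of -1.60 ± 0.30, and it was 0.01 in heavy polysomes. Its relatives Pabpc2 (-0.33 in light polysomes, 1.11 in the top fraction) and Pabpc4 (-0.39 in light polysomes, 0.87 in the top fraction) had differences of -1.43 and -1.26, or -1.50 and -1.81 with the software's ratios. Ybx1, a cold-shock domain protein that coats mRNA, had -0.11 in light polysomes and 0.94 in the top fraction, a difference of -1.05 ± 0.16 over 4 probes that ranged from -1.36 to -0.40. These 4 were brought together after their values were seen, and probes of the poly(A)-binding protein genes may share sequence. Of the 54 initiation factors measured, 32 were below 0 with a median of -0.12, and Pabpc1 and Pabpc4, which that list holds too, were its 2 genes lower at 2-fold. Without loess that list's median was 0.09, or -0.04 relative to the shift of all genes. Eif5, the factor that triggers GTP hydrolysis by eIF2, had -0.92. The Argonaute gene Eif2c3 (0.62), Eif2a (0.54) and the cap-binding protein gene Eif4e (0.50) were the highest.

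Ferritin chains, the iron store whose mRNA is a classic case of control at initiation, lay in the same range. Ftl2, now listed as a pseudogene named Ftl2-ps, had -0.15 in light polysomes and 1.05 in the top fraction, a difference of -1.21. Ftl1 had 0.00 in light polysomes and 0.97 in the top fraction, a difference of -0.97. Fth1, the heavy chain, had 0.38 in light polysomes and 1.32 in the top fraction, a difference of -0.94 that was -0.52 with the software's ratios. The light-chain probes may share sequence, so these are not independent values. Of the other iron genes, the iron regulatory protein genes Ireb2 and Aco1 had 0.00 and 0.54 and the transferrin receptor gene Tfrc had -0.33. These 3 were chosen after the ferritin values were seen.

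Spop had the lowest difference among genes with a name and was the single gene past 2-fold in opposite directions on the 2 arrays. It encodes the substrate adaptor of a Cullin 3 ubiquitin ligase. Its ratio was -1.01 ± 0.23 in light polysomes and 1.04 ± 0.22 in the top fraction, a difference of -2.05 ± 0.32, or 4.14-fold, from 1 probe at chr11:95308247-95308306 (plus strand, mm8). Its heavy polysome ratio was -0.11. In control cells its signal was 2.11 lower on the log2 scale in light polysomes than in the top fraction, after the channels were scaled between arrays.

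The other lowest genes fall into 2 kinds. In the first, the top ratio was above 1. Arpc1b, a subunit of the Arp2/3 complex that branches actin filaments, had 1.16 in light polysomes and 2.65 in the top fraction, a difference of -1.50, and its paralog Arpc1a had 0.14 in light polysomes and 1.38 in the top fraction, a difference of -1.24. The 7 other measured genes of that complex had a median of 0.26 and a range of -0.29 to 0.73. Ercc1, a partner in the nuclease of nucleotide excision repair, had -0.13 in light polysomes and 1.24 in the top fraction. In the second kind, the light ratio was low and the top ratio near 0. Slc35d1, a nucleotide sugar transporter of the endoplasmic reticulum, had -1.27 in light polysomes and 0.21 in the top fraction. Gcnt2, a glycosyltransferase that branches sugar chains, had -1.33 in light polysomes and -0.06 in the top fraction. Fstl1, a secreted glycoprotein, had -0.91 in light polysomes and 0.25 in the top fraction. Tob2, which recruits the CCR4-NOT deadenylase, had -0.80 in light polysomes and 0.36 in the top fraction, with -1.23 and -1.10 for its 2 probes. Between the 2 kinds were the transcription factor genes Crebl2 (-0.50 in light polysomes, 0.81 in the top fraction) and Zbtb12 (-0.48 in light polysomes, 0.65 in the top fraction).

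Of the 79 lower genes, 40 had clone, predicted or unmatched names. The deposited descriptions call 13 of these similar to a ribosomal protein, 9 of them to ribosomal protein S2, with differences between -1.60 and -1.09. Such probes may measure Rps2 mRNA, so they are not separate genes for counting, and 66 lower genes remained without the 13. None of the 34 higher genes had such a description. Over all 10683 measured genes, 2389 had clone, predicted or unmatched names, and 58 of these were described as like a ribosomal protein. The 58 had a median of -0.47 with 49 below 0. The 10 like S2 ran from -1.60 to -0.38, so the upper end of -1.09 above comes from the 2-fold cut. Such a description was rare over all genes, so its absence among 34 says little.

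**Figure D3:**
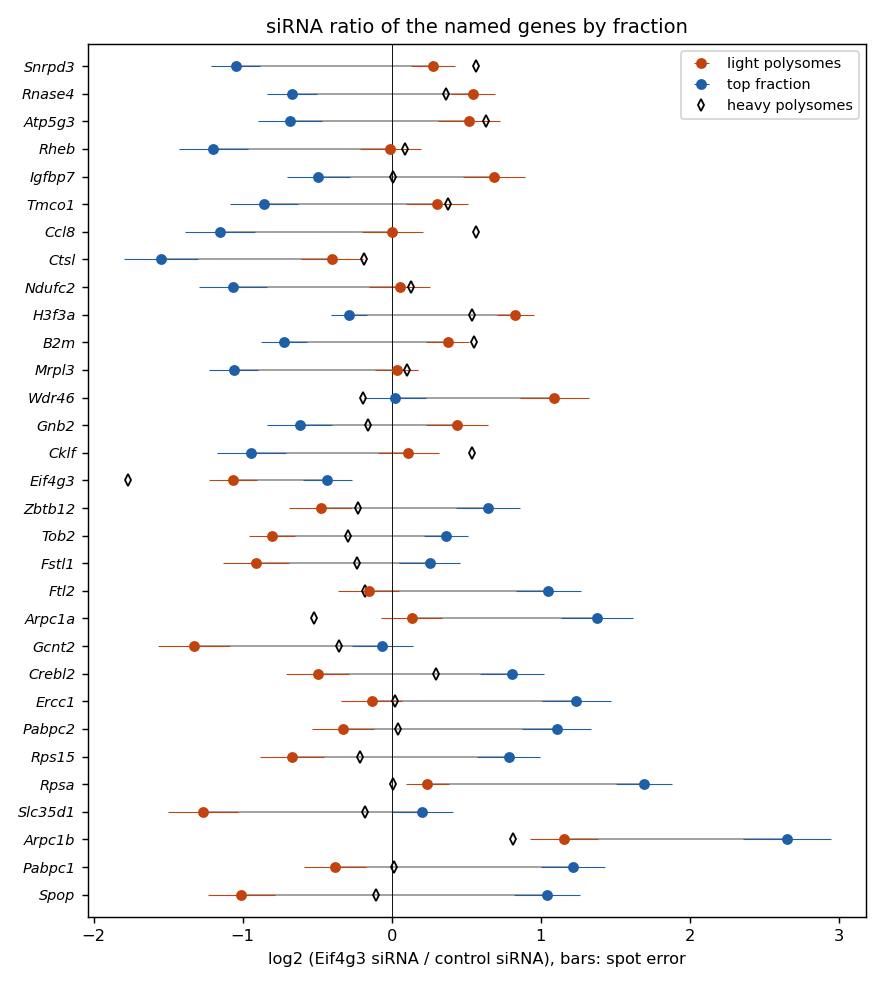
Log2 of Eif4g3 siRNA over control siRNA signal for the 15 highest and 15 lowest named genes of light minus top and for Eif4g3, in light polysomes (red), the top fraction (blue) and heavy polysomes (open diamonds), 1 array each. Bars are the software's spot error for light and top. Among the upper genes the top ratio lies at or below 0 for all but Wdr46, and among the lower genes it lies above 0 for all but Gcnt2.

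The highest genes were of varied function. Snrpd3, an Sm protein of spliceosomal particles, had 0.28 in light polysomes and -1.05 in the top fraction, a difference of 1.32 ± 0.22, with 1.36 and 1.29 for its 2 probes. Its heavy polysome ratio was 0.57. The mitochondrial genes Atp5g3 (a proton-channel subunit of ATP synthase), Ndufc2 (complex I) and Mrpl3 (mitochondrial ribosome) had light ratios of 0.52, 0.05 and 0.03, against -0.68, -1.06 and -1.06 in the top fraction. Rheb, the GTPase that activates mTORC1, had -0.01 in light polysomes and -1.20 in the top fraction, a difference of 1.19. Ctsl, a lysosomal protease, was below 0 on both arrays, with -0.40 in light polysomes and -1.55 in the top fraction. Secreted products were Rnase4 (0.54 in light polysomes, -0.67 in the top fraction, 2 probes), Igfbp7 (0.69 in light polysomes, -0.49 in the top fraction) and the chemokine Ccl8 (0.00 in light polysomes, -1.15 in the top fraction). B2m, the light chain of MHC class I, had 0.38 in light polysomes and -0.72 in the top fraction, with 1.12 and 1.07 for its 2 probes. H3f3a, which encodes the replication-independent histone H3.3, had 0.83 in light polysomes and -0.29 in the top fraction, a difference of 1.12 ± 0.17 over 3 probes. Wdr46, a nucleolar protein, differed from these, with 1.09 in light polysomes and 0.02 in the top fraction. Tmco1, a calcium channel of the endoplasmic reticulum, had a difference of 1.16, the G protein subunit gene Gnb2 had 1.05 and the chemokine-like factor gene Cklf had 1.05. Values above that of Snrpd3 came from Zbtb20 (1.48), a zinc finger repressor chosen after its value was seen, whose top signal lay below the median of all genes, and from Oasl2 (1.42), described below.

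Genes of oxidative phosphorylation were mostly above 0. Of 77 measured genes 65 were above 0, with a median of 0.35, where 50.5% of all genes were above 0, and 2 were higher at 2-fold, the Atp5g3 and Ndufc2 named above. The group's median ratio was -0.03 in light polysomes and -0.36 in the top fraction, the mirror of the ribosomal proteins, and it was 0.27 in heavy polysomes. All 5 complexes had medians above 0: 0.39 for 36 genes of complex I, 0.25 for 4 of complex II, 0.34 for 9 of complex III with cytochrome c, 0.47 for 12 of complex IV and 0.25 for 16 of ATP synthase. Cycs, cytochrome c itself, had 0.54 in light polysomes and -0.45 in the top fraction. The lowest were Cox7a2l, a factor of respiratory supercomplexes, at -0.77 and Sdha, the flavoprotein of complex II, at -0.66. Sdha rests on 1 probe with net signals of 25.3 (Eif4g3 siRNA) and 17.5 (control) on the top array, close to the limit of measurement. Mitochondrial ribosomal proteins had a smaller median of 0.14, with 54 of 74 above 0 and Mrpl3 higher at 2-fold. Mitochondrial import genes had 0.11, with 15 of 24 above 0. The medians of these 3 groups, and those of the histone, cell cycle and secretory groups that follow, were above 0 in all 9 alternatives run. Of the 9, the software's ratio and the deposited table hold the same values. Without loess and relative to the shift of all genes, these medians ran from 0.24 for mitochondrial import to 0.61 for oxidative phosphorylation.

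Histone genes had a group median of 0.38, with 34 of 38 measured genes above 0. H3f3a was higher at 2-fold, and with the software's ratios 4 genes were. The group's median ratio was 0.11 in light polysomes and -0.18 in the top fraction. The clustered genes are mostly expressed with DNA replication and without a poly(A) tail. Among them, 8 H2B genes had a median of 0.73, 6 H4 genes 0.44 and 8 H2A genes 0.22. The 29 clustered genes together had 0.32 and the 9 variant genes, whose mRNA has a tail, 0.52. Near-identical members of the clusters may share probes. Hist3h2bb (0.97), now listed as a pseudogene named H2bu1-ps, and Hist1h2ba (0.96) followed H3f3a. Hist1h2ab (-0.47), H2afy (-0.39) and Hist1h1b (-0.36) were lowest. DNA replication and cell cycle genes had 45 of 56 above 0 and a median of 0.22. None passed 2-fold, while 3 were higher at 2-fold with the software's ratios. The list's top median was -0.03 and its light median 0.24, so with the ratios computed here the light median lay farther from 0. Rpa3 (0.93), Mad2l1 (0.82) and Cdc2a, the mitotic kinase Cdk1 (0.80), were highest, and the helicase subunit gene Mcm7 (-0.77) and the cyclin gene Ccnd1 (-0.70) were lowest. Of the highest, Rpa3 had its larger ratio in the top fraction (-0.72, against 0.22 in light polysomes), and Mad2l1 and Cdc2a in light polysomes. With the software's ratios Mad2l1 had 0.64 in light polysomes and -0.74 in the top fraction. The differences of Rpa3 and Mad2l1 were then 1.31 and 1.38.

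In the secretory pathway, 39 of 49 genes of chaperones, folding and translocation in the endoplasmic reticulum were above 0, with a median of 0.27. Of 47 genes of transport to the Golgi, 39 were above 0, with a median of 0.28. None passed 2-fold with the ratios computed here, and 1 in each group was higher at 2-fold with the software's ratios. Top medians of -0.23 and -0.22 stood against light medians of 0.00 and 0.10. Spcs1, a signal peptidase subunit, had -0.21 in light polysomes and -1.03 in the top fraction, and the chaperone gene Hspa5 had -0.28 in light polysomes and -0.88 in the top fraction. Rab1, a GTPase of vesicle transport, had a difference of 0.79. On the low side, Bcap29 had -1.92 in light polysomes and -1.19 in the top fraction, a difference of -0.73 that was -0.21 with the software's ratios, and Calr, the chaperone calreticulin, had -0.64. Both groups had medians below 0 in heavy polysomes, -0.11 and -0.17.

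Interferon-stimulated genes had median ratios above 0 on both arrays. Their median ratio was 0.71 in light polysomes and 0.35 in the top fraction, with a difference of 0.32 and 29 of 37 genes above 0. Oasl2, a relative of the antiviral oligoadenylate synthetases, had 2.07 in light polysomes and 0.65 in the top fraction, a difference of 1.42 ± 0.41. Ifih1, the RNA sensor MDA5, had 1.38 in light polysomes and 0.15 in the top fraction, a difference of 1.23. Both were higher at 2-fold, but their differences were 0.41 and 0.94 with the software's ratios. The group median with those ratios was 0.04, with 20 of 37 above 0, so the size of this group's median depended on the ratio used. Ddx58, the sensor RIG-I, had 0.20 in light polysomes and 0.56 in the top fraction, and the resistance GTPase gene Irgm had 0.71 in light polysomes and 1.04 in the top fraction. Of 18 antigen presentation genes 12 were above 0 (median 0.15), and B2m was higher at 2-fold.

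**Figure D4:**
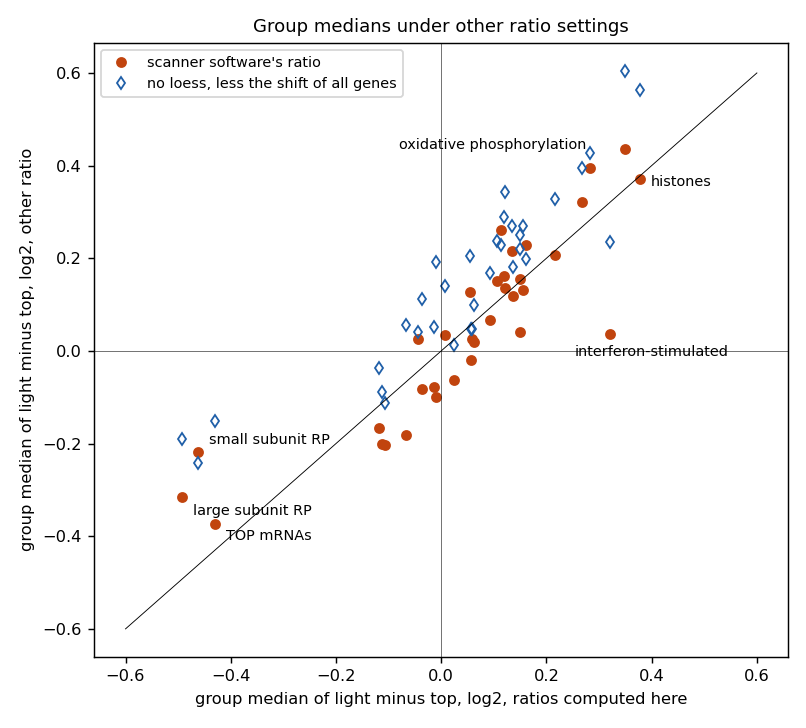
Group medians of light minus top (log2) with the ratios computed here (x axis) against the same medians with the scanner software's ratios (filled circles) and without loess, less the shift of all genes (open diamonds). Points on the line are equal. The interferon-stimulated genes have a median of 0.04 with the software's ratios and 0.32 with those computed here, while the ribosomal protein (RP) and TOP groups keep negative medians under both.

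Groups of the stromal matrix had small medians with the ratios computed here. The median was 0.16 for collagen chains, of which 14 of 20 were above 0. For matrix glycoproteins, proteoglycans and elastic fibre genes it was 0.11 with 25 of 38 above 0, and for matrix proteases and inhibitors -0.04 with 19 of 40 above 0. With the software's ratios these medians were 0.23, 0.26 and 0.03. None of these genes passed 2-fold with the ratios computed here. Col5a2 had 0.73 in light polysomes and -0.26 in the top fraction, and Col4a2 had 0.97 in light polysomes and 0.03 in the top fraction, while their heavy polysome ratios were -0.66 and -0.53. Collagens as a group had a heavy median of -0.53. Mgp, the inhibitor of calcification, had 0.09 in light polysomes and -0.82 in the top fraction. Col20a1 (-0.87) and the metalloprotease inhibitor gene Timp3 (-0.71) were low. The 13 measured fibroblastic markers had a median of 0.12, from Vcam1 (-0.31) and Pdgfra (-0.33) to Col1a2 (0.63).

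Chemokines and cytokines had a median of 0.06, or -0.01 without the filter on dim probes, but 3 of 27 genes higher at 2-fold and none lower, where 0.318% of all genes were higher. These were Ccl8 (1.16), Cklf (1.05) and Ccl2, the monocyte chemokine (1.01), which had -0.18 in light polysomes and -1.20 in the top fraction. At the other end were Tgfb1 (-0.51), Il33 (-0.49) and Cxcl1 (-0.49). With the software's ratios Il33 had -1.11, the 1 gene of the list lower at 2-fold there. Cxcl1 had net signals of 16.0 (Eif4g3 siRNA) and 20.7 (control) on the top array, close to the limit of measurement. Of 39 redox genes 25 were above 0, with a median of 0.12. Catalase, Cat, was higher at 2-fold with 1.10 in light polysomes and -0.03 in the top fraction. The thioredoxin gene Txn1 (0.998) and the peroxiredoxin gene Prdx1 (0.94) followed, and the ferritin chains formed the low end. Of 39 proteasome genes 24 were above 0 (median 0.16), and the core subunit gene Psma5 was higher at 2-fold (1.02). Lysosomal genes had 0.12 with 26 of 39 above 0 and Ctsl higher at 2-fold. Spliceosomal particle genes had 0.14 with 26 of 39 above 0 and Snrpd3 higher at 2-fold, while SR and hnRNP regulators of splicing had -0.01 with 19 of 41 above 0.

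Genes of mRNA decay were below 0 in 29 of 46 cases, with a median of -0.11 that was 0.04 without loess, or -0.09 relative to the shift of all genes. Lower at 2-fold were Tob2 and Ddx6, a helicase of processing bodies, which had -0.82 in light polysomes and 0.27 in the top fraction. Genes reported to bear internal ribosome entry sites or to be sensitive to eIF4E had a median of -0.11, with 12 of 29 above 0. That median was 0.01 without loess and 0.0003 with bright probes alone. None passed 2-fold, while 1 was lower at 2-fold with the software's ratios. The list split widely, with Cdkn1b (-0.76) and Ccnd1 (-0.70) among the low genes and Sod2 (0.92) at the high end. The mTOR list had 0.02 with 17 of 33 above 0, and its sign held in 4 of the 9 alternatives, with -0.06 by the software's ratios and -0.18 with bright probes alone. Beside Rheb it held Frap1, the mTOR kinase itself, with 0.79 in light polysomes and -0.02 in the top fraction, and the mTOR inhibitor gene Ddit4, with -1.03 in light polysomes and -0.07 in the top fraction. Immediate early genes were above 0 in 10 of 30 cases with a median of -0.07, against 0.18 without loess and 0.06 relative to the shift. Nr4a2 had -0.83, and Junb, an AP-1 subunit, had 0.31 in light polysomes and 0.98 in the top fraction. Of 8 noncoding RNAs measured 5 were below 0, with a median of -0.45 that was -0.14 without the filter on dim probes and -0.16 over the 3 genes with bright probes. Rmrp, the RNA of RNase MRP, which is not translated, had -0.25 in light polysomes and 0.72 in the top fraction, a difference of -0.97. Gas5, a host of small nucleolar RNAs and itself a TOP transcript, had -0.75.

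Other groups had medians within 0.1 of 0: glycolysis and hypoxia (0.01, 18 of 36 above 0), stress response and amino acid synthesis (-0.01, 11 of 22), tRNA synthetases (0.06, 21 of 32), sterol and fatty acid synthesis (0.06, 19 of 37), chaperonin and heat shock genes (-0.04, 16 of 36), tubulins and motors (0.09, 32 of 50), and the Arp2/3 and actomyosin list (0.05, 24 of 42). Lamins and HMG genes had 0.15 with 11 of 19 above 0. In these, Eno1, the glycolytic enolase, was lower at 2-fold, with -0.69 in light polysomes and 0.38 in the top fraction. The stress transcription factor gene Atf4 had -0.64 and the lamin gene Lmnb1 had -0.95, both short of 2-fold.

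Deaf1 is known as a regulator of peripheral tissue antigens in lymph node stroma, the products by which these cells present other tissues' proteins to T cells. It had -0.22 in light polysomes and 0.15 in the top fraction, a difference of -0.37 ± 0.31, or -0.61 with the software's ratios. The antigen genes Ptprn, an islet autoantigen, and Anpep, an aminopeptidase, had differences of -0.60 ± 0.40 and -0.26 ± 0.33, with light ratios of -0.58 and -0.27 and top ratios of 0.03 and -0.01. Each of these 3 genes rests on 1 probe. On the top array Ptprn had net signals of 18.4 (Eif4g3 siRNA) and 20.3 (control), close to the limit of measurement. None passed 2-fold, and 3 of 7 genes on this list were measured on both arrays.

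Light minus top varied with where an mRNA sat in control cells. After channel signals were scaled between arrays, genes were put in 5 equal classes by the log2 of control signal in light polysomes over that in the top fraction. From the class most in the top fraction to the class most in light polysomes, the median of light minus top was -0.16, -0.07, 0.01, 0.09 and 0.20, and with the software's ratios -0.32, -0.15, -0.01, 0.10 and 0.30. Of the 79 lower genes 54 lay in the first class, and of the 34 higher genes 24 lay in the last. The median over the Eif4g3 siRNA channel of the same light over top signal was -1.29 in the first class, against -1.04 in the control channel, and 1.09 in the last, against 0.85 in the control channel. The control signal is part of both quantities and each array is shared, so the trend is a description of these 2 arrays and carries no test.

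**Figure D5:**
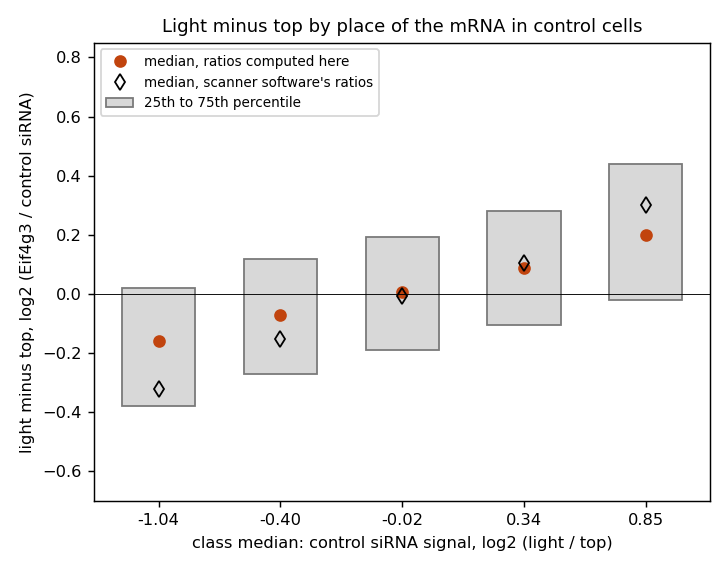
Light minus top (y axis, log2) in 5 equal classes of genes ordered by control siRNA signal in light polysomes over the top fraction (x axis, class medians, log2). Circles are medians with the ratios computed here, diamonds medians with the software's ratios, and boxes run from the 25th to the 75th percentile. Medians run from -0.16 in the class most in the top fraction to 0.20 in the class most in light polysomes, and the boxes overlap.

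The heavy polysome array did not enter the difference. The ratio in heavy polysomes was nearer to the light ratio than to the top ratio for 24 of the 34 higher genes and for 54 of the 79 lower genes. It had the sign of the difference in 24 of the 34, with a median of 0.31, and in 45 of the 79, with a median of -0.06. It was past 2-fold in that direction for 4 of the 34 and 2 of the 79. Over all 10639 genes measured on the 3 arrays, the heavy ratio was nearer to the light ratio for 5707 (53.6%). The 34 and 79 genes were chosen by their light and top ratios, and in 51 of the 79 the top ratio lay farther from 0. In those a heavy ratio near 0 is nearer to the light ratio, so these counts are no separate support for the difference. Light minus top and any difference of heavy minus top share the top array, so those differences are not set against each other.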

How the data were processed

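Each fraction of mouse stromal cells was 1 Agilent 2-colour array, and all 3 arrays were on 1 slide in 1 scan. The deposited scanner files give the mean intensity of each spot by channel, on a linear scale, and the file headers name Agilent's Feature Extraction software, version 10.5.1.1, as their source. A log10 ratio of Cy5 over Cy3 with its error, and a p-value of that ratio for single spots, which is not used here, were added by the same software, per the file headers. The authors' deposited table of log2 values matched that ratio, turned to log2, within 0.001 for all 14337 probes measured on the top array, 20658 on the light and 21245 on the heavy one. Its column medians were -0.09, -0.01 and 0.22, so its scale and direction are known and it was not centred beyond the software's ratio.

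Ratios were computed from mean signals and local background medians with limma 3.58.1 in R 4.3.3, by normexp with an offset of 50 and loess within each array with control spots at weight 0. Outlier-marked spots (220 top, 170 light, 183 heavy) were left out and 0 spots were saturated. Probes of control type 0 well above background in both channels on both arrays were averaged per gene name. Probe coordinates are on mm8. Channel signals across arrays were scaled with Aquantile. The steps were tested on simulated data. A RefSeq table of GRCm38.p6, which also gave the sequences, held a current symbol for 19611 of the 27745 gene names, and 2389 measured genes with clone, predicted or unmatched names were counted and not named.

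The members and all 41 gene lists were chosen with earlier results of these data known. Named were 5 genes of the study's question, the 15 highest and 15 lowest past 2-fold with both kinds of ratio, with at least median signal on both arrays and all probes on 1 side of 0, those of the same kind with at least 2 probes, the 3 highest and 3 lowest members of each list, and genes past 2-fold in opposite directions. Zbtb20, Ireb2, Aco1, Tfrc, Eef1g, Rps12, Rpl12 and Rplp2 were named after their values were seen. The array's precision is limited by the number of arrays, 1 per fraction. Alternatives changed the background correction, loess, the ratio, the spread of the arrays, the filter on dim probes and the averaging over probes. The software's ratio and the authors' deposited table count as 2 of the 9 alternatives but hold the same values. Classes of protein length were planned and are not used here. Some genes that the naming rule would take are not reported here.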

Additional observations from a re-analysis of the deposited data

Results flagged for a closer look

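Spop met the condition for a closer look because its siRNA ratio was past 2-fold in opposite directions on the 2 arrays, -1.01 in light polysomes and 1.04 in the top fraction, a light minus top of -2.05 on the log2 scale. The difference between the arrays was not tested, since each fraction had 1 array. The value rests on 1 probe, and was -1.98 with the scanner software's ratio. The part of the probe or of the array in this value was not tested.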

How the results depend on the processing

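Counts at 2-fold moved with the ratio and with loess. Against 34 higher, 79 lower and 113 in all, normexp with an offset of 0 gave 113, 164 and 277, plain subtraction 152, 183 and 335, and the software's ratio and the authors' deposited table each 167, 214 and 381. Without loess there were 221 higher, 68 lower and 289 in all, around a median of 0.13. Scaling the arrays to the same spread (43 and 89), no filter on dim probes (29 and 64), bright probes alone (26 and 64) and the median over probes (34 and 81) kept the higher and lower counts within 1.5 times. The genes tested were 27732 without the filter and 5268 with bright probes alone, against 10683. Like counts in these 2 settings are therefore not like shares of the genes tested. The share of calls that were higher was 40.8% with an offset of 0, 45.4% with plain subtraction, 43.8% with the software's ratio and 76.5% without loess, against 30.1%. Of 32 named genes past 2-fold, 21 were past it the same way without the filter on dim probes, which adds probes near background to a gene's mean. Of 37 lists with at least 5 measured genes, 9 had a median of at least 0.25 in size. Without loess 22 lists did, with their direction unchanged, but of the 9 only 6 were among them, since the large-subunit (-0.06), small-subunit (-0.12) and TOP (-0.02) lists were not. Without the filter 4 of the 9 reached 0.25. All 113 genes past 2-fold kept their sign in 8 alternatives, as did the 80 that had a value with bright probes alone, and 69 of the 113 were past 2-fold without loess. Apart from the loess and filter changes, the cause was not tested. No paired analysis was possible because each fraction had 1 array, and for the same reason no array could be left out. Signal over background limits the top array, with 6615 probes measured in light polysomes alone.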
